A study of Mus musculus with 36 samples.

Results

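The genes described here are 10 genes of iron storage and transport, chosen by symbol from the 54532 genes of a count table: Fth1, Ftl1, Slc40a1, Tfrc, Steap3, Slc11a1, Slc11a2, Ireb2, Lcn2 and Hamp. All 10 had a row in the table. The levels were read by poly(A) RNA sequencing in mouse bone marrow-derived macrophages, that is, marrow cells grown into macrophages with the growth factor MCSF for 7 days. The marrow came from female C57BL/6 mice aged 13 to 17 weeks. The WT cells carried floxed alleles of the clock gene Bmal1 and no Cre (Bmal1 flox/flox, n = 3 replicates), and the KO cells carried the same floxed alleles and Cre (LysM-Cre;Bmal1 flox/flox, n = 6 replicates). In these mice Cre is driven by the LysM promoter, which is active in myeloid cells, so the deletion follows that promoter and can be incomplete. Each culture received for 6 h the DMSO vehicle, 100 µM CCM (Core Circadian Modulator, a small molecule that binds the PASB domain of BMAL1), 100 nM LPS (a bacterial cell wall component that activates macrophages) or LPS together with CCM, which gave 36 libraries. The study asked what CCM does to macrophage gene expression at rest and after LPS, and whether that needs Bmal1.

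Macrophages take iron from transferrin and from the haem of engulfed red cells, keep it inside ferritin, a hollow shell built of heavy (Fth1) and light (Ftl1) chains, and release it through ferroportin (Slc40a1). Iron regulatory proteins, among them the product of Ireb2, bind hairpins called iron-responsive elements in some of these mRNAs when iron is scarce. Bound near the start of a message they block its translation, and bound behind the coding region of the transferrin receptor mRNA they protect it from decay. In infection macrophages are known to hold iron back from microbes, with more ferritin, less ferroportin, and secretion of lipocalin 2 (Lcn2), which captures bacterial siderophores.

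The hairpins are shown here because they mark a kind of control that read counts of mRNA measure only in part. A block of translation is not seen in such counts, whereas protection of an mRNA from decay acts on its level. The untranslated regions of the GENCODE M21 transcripts (GRCm38, the assembly also called mm10, which the table uses) were searched for a C, a stem of 5 paired bases and the loop CAGTGN. Fth1, Ftl1 and Slc40a1 each held 1 match in the 5′ untranslated region, and Tfrc held 4 in the 3′ untranslated region. The other 6 genes held none, which says only that this string and stem were not in the annotated regions searched. A hairpin with an unpaired base within the 5 stem positions would be missed, so a gene without a match may still carry one. Over all genes searched, 0.151% (31 of 20597) had a match in a 5′ and 0.614% (129 of 20995) in a 3′ untranslated region. Each sequence is given 5′ to 3′ on the strand of the gene, as DNA letters, with the loop in capitals.
Fth1, 5′ untranslated region, chr19:9982732-9982761, plus strand: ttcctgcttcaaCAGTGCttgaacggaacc
Ftl1, 5′ untranslated region, chr7:45459778-45459807, minus strand: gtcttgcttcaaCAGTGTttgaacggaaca
Slc40a1, 5′ untranslated region, chr1:45925464-45925493, minus strand: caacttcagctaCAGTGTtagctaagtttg
Tfrc, 3′ untranslated region, chr16:32631219-32631248, plus strand: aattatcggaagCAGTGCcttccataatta
Tfrc, 3′ untranslated region, chr16:32631598-32631627, plus strand: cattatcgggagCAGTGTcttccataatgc
Tfrc, 3′ untranslated region, chr16:32631663-32631692, plus strand: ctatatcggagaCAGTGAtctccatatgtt
Tfrc, 3′ untranslated region, chr16:32631710-32631739, plus strand: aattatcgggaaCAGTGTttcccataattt

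BMAL1 is known to bind the E-box CACGTG as part of the clock. Promoter windows of 300 bases around the annotated starts (RefSeq, GRCm38.p6) were given for 8 of the 10 genes, Slc40a1 and Slc11a2 having none in the table used. The E-box was in 0 of these 8 genes' windows and in 8.09% of all 27025 genes with a window. A missing match says nothing about binding elsewhere at these genes.

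Depth ranged from 13469262 to 28288923 counts per library. The 9 macrophage markers, Adgre1, Csf1r and Cd68 among them, were read in all 36 libraries, and their summed level ran from 4536 to 9825 CPM (counts scaled to 1000000 per library). Arntl, the gene symbol of Bmal1, ran from 7.28 to 12.9 CPM in the WT libraries and from 2.13 to 10.7 CPM in the KO libraries, and these ranges overlapped. The counts cover the whole gene, so they do not measure the deleted part. KO replicate 6 stood apart from the other KO libraries in many genes, so the KO fold changes of the genes described below are also given without it. The wider list of iron genes at the end is given for KO with replicate 6 included. The neutrophil markers of KO replicate 6 summed to between 1128 and 1193 CPM, against 437.5 to 1068 CPM in the other KO libraries. Single genes of that list differed. S100a8 (318 to 424 CPM, others 99.9 to 340) and S100a9 (459 to 500 CPM, others 135 to 383) were high in it. Ngp (165.5 to 191 CPM, others 97.0 to 275), Mmp8 (23.8 to 45.9 CPM, others 21.2 to 82.8) and Cxcr2 (0.29 to 2.17 CPM, others 0.53 to 5.52) did not exceed the others. The B cell, T cell and erythroid markers of replicate 6 also had the highest sum of each KO group. The erythroid sum, of haemoglobin genes among others, was 6.30 to 15.3 CPM in replicate 6 and 2.79 to 10.5 CPM in the other KO libraries. Their part in the results was not tested. The labels do not say whether libraries with the same replicate number came from the same mouse, and p-values measure the spread between these libraries, which may be technical.

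Compared per length, in TPM (the count divided by the gene length given in the table, scaled like CPM), the ferritin chains were far above the other 8 genes. In WT vehicle cells Fth1 had 45140 ± 2970 TPM (SD, n = 3), the highest level of all genes in the table, and Ftl1 had 14090 ± 1650 TPM, the rank of 5. Slc11a1, the phagosome metal transporter, followed with 287 ± 16.0 TPM. Lcn2 (64.2 ± 5.22 TPM), Tfrc (61.8 ± 11.8 TPM) and Slc40a1 (61.0 ± 2.51 TPM) did not differ beyond their spread. Slc11a2 (30.0 ± 3.06 TPM) and Steap3 (27.8 ± 2.38 TPM) did not either, and Ireb2 stood below them with 18.9 ± 1.74 TPM. Hamp, which encodes hepcidin, the hormone that removes ferroportin from the cell surface, had 1 count over the 3 WT vehicle libraries.

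**Figure D1:**
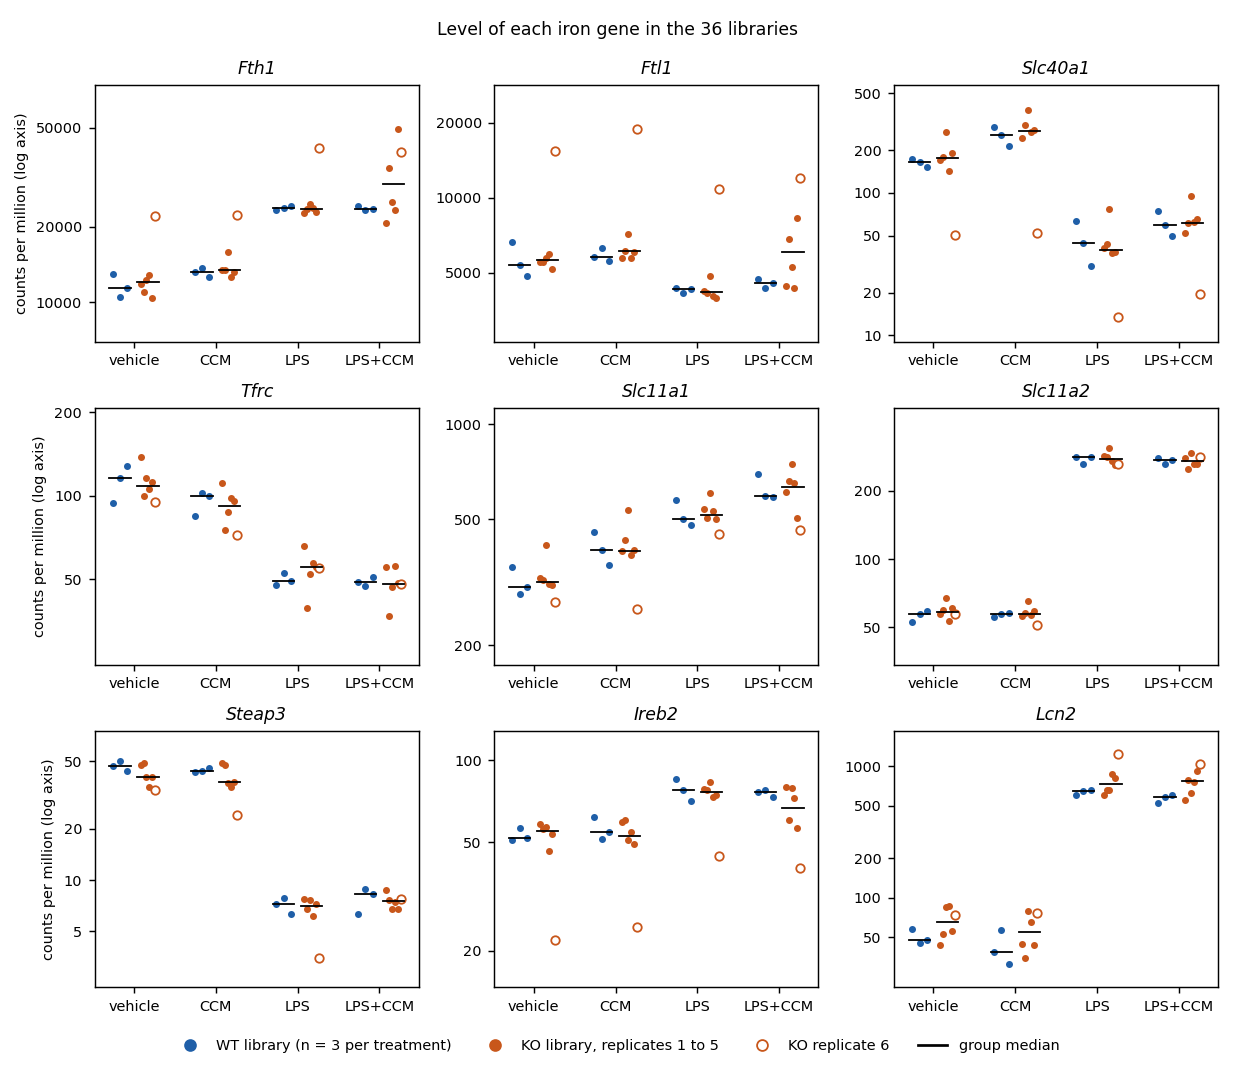
Level of 9 of the 10 genes in each library, in CPM on a log axis, by treatment, with WT libraries in blue, KO libraries in orange, KO replicate 6 as an open circle and the group median as a bar (Hamp is left out because it had 197 counts in all). LPS moves Lcn2 and Slc11a2 up and Steap3, Slc40a1 and Tfrc down in both genotypes, and KO replicate 6 lies apart for Fth1, Ftl1, Slc40a1 and Ireb2.

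The comparison of LPS with vehicle asked what 6 h of LPS did to these transcripts. All 9 genes with enough counts to be tested changed in WT cells, 5 higher and 4 lower, where 63% of the 14501 genes tested passed the same threshold (30.6% higher and 32.4% lower). A gene is called here when the adjusted p of edgeR's quasi-likelihood test over all genes tested is at most 0.05. Ferritin heavy chain, the metal importers Slc11a1 and Slc11a2, Ireb2 and Lcn2 rose, while ferritin light chain, ferroportin, the transferrin receptor and the ferric reductase Steap3 fell. In KO cells 7 of 9 were called, 4 higher and 3 lower, where 47.1% of 13648 genes were called (22.4% higher and 24.7% lower). Over the 9 genes the log2 fold change had a median of 0.56 (WT) and 0.54 (KO), beside -0.05 in both over all genes tested. In bulk RNA, fewer cells of a type and less RNA per cell cannot be told apart. Levels per library are in CPM scaled by TMM, which centres the bulk of genes. With total counts alone the median change of all genes under LPS was -0.47 in WT and -0.44 in KO, so each fold change below is relative to the middle of all genes. No direction of the 9 genes under LPS turned with total counts.

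The storage genes went opposite ways. Fth1 encodes the heavy chain, which oxidises ferrous iron as it enters the shell. Its level was 12980, 10480 and 11420 CPM in the WT vehicle libraries and 23470, 23810 and 24380 CPM in the WT LPS libraries. Every LPS library was above every vehicle library, and the log2 fold change was 1.04 (SE 0.084, edgeR adjusted p = 2.3e-06). In KO cells the lowest, median and highest levels were 10410, 12060 and 22150 CPM with vehicle and 22670, 23700 and 41590 CPM with LPS. The KO groups did not overlap either, although the highest vehicle library, replicate 6, came close to the lowest LPS library. The log2 fold change in KO was 0.98 (SE 0.235, edgeR adjusted p = 0.00374), and 0.996 without replicate 6. Counted against total counts alone, the change of Fth1 was smaller, 0.63 in WT and 0.60 in KO, and still called.

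Ftl1 encodes the light chain, which helps the iron core to form. It overlaps the annotated genes Gm10252 and Gm22133, and whether the counting used strand is not given in the sources used here. In WT cells it had 6645, 5361 and 4868 CPM with vehicle and 4350, 4161 and 4308 CPM with LPS. The LPS libraries were all lower, and the log2 fold change was -0.39 (SE 0.1, edgeR adjusted p = 0.00661). The size of this drop varied with the processing, from -0.24 to -0.80 over the 14 alternatives, the latter with total counts alone. The call was lost with all 36 libraries in 1 fit (edgeR adjusted p = 0.542, the highest of the 14, whose lowest was 3.92e-07). Among KO libraries the lowest, median and highest levels were 5188, 5631 and 15370 CPM with vehicle and 3978, 4209 and 10830 CPM with LPS. These groups overlapped through replicate 6, and Ftl1 was not called in KO (log2 fold change -0.44, SE 0.351, edgeR adjusted p = 0.347). Each of the 6 same-numbered pairs was lower with LPS, by 0.23 to 0.55 on the log2 scale. With replicate as a block Ftl1 was called lower in KO (-0.42, edgeR adjusted p = 3.12e-06), as it was without replicate 6 (-0.41, edgeR adjusted p = 0.000104) and with total counts alone (-0.80, edgeR adjusted p = 0.0203), and the 14 alternatives ran from 3.12e-06 to 0.462. Under the block 9 of the 9 genes were called, where 71.6% of all genes tested were, and without replicate 6 also 9 of 9, where 69.4% were.

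The ratio of Fth1 to Ftl1 counts within a library does not depend on how libraries are scaled, and it holds no correction for length. In WT cells it was 2.08 ± 0.226 (SD, n = 3) with vehicle and 5.59 ± 0.173 (n = 3) with LPS. This is a difference of 1.43 on the log2 scale or 2.69-fold, and a two-sided exact permutation test gave p = 0.1, the smallest that 3 against 3 libraries allow. For KO the ratio was 1.98 ± 0.276 (n = 6) with vehicle and 5.26 ± 0.755 (n = 6) with LPS, 2.65-fold higher, with an exact permutation p = 0.002165, the smallest that 6 against 6 allow. Without replicate 6 it was 2.09 ± 0.0912 and 5.54 ± 0.329 (n = 5), again 2.65-fold (exact permutation p = 0.007937). No LPS library of either genotype overlapped a vehicle library. Replicate 6 had the lowest ratio of its group with each treatment, 1.44 with vehicle and 3.84 with LPS. With CCM alone the ratio was 2.24 ± 0.0553 in WT and 2.05 ± 0.429 in KO, and with LPS+CCM 5.23 ± 0.133 in WT and 4.84 ± 0.875 in KO. The largest ferritin pseudogene row, Ftl1-ps1, had 2.95% as many counts as Ftl1, and reads shared with such copies make the level of either uncertain by that order.

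**Figure D2:**
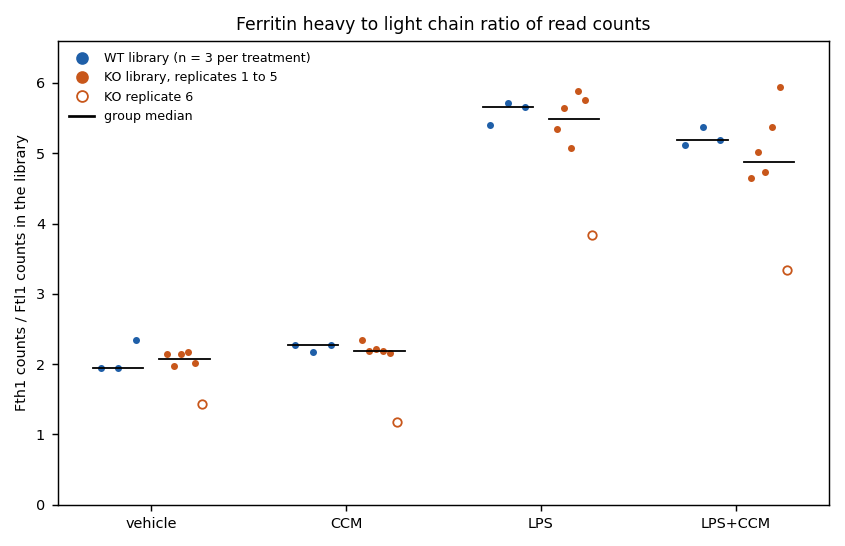
Ratio of Fth1 counts to Ftl1 counts in each library, by treatment, for WT (blue) and KO (orange), with KO replicate 6 open and the group median as a bar. The ratio lies between 1.18 and 2.35 in the libraries without LPS and between 3.34 and 5.94 in those with LPS.

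Slc40a1 encodes ferroportin, the iron exporter. In WT cells it had 173, 164 and 152 CPM with vehicle and 63.25, 44.8 and 30.7 CPM with LPS. All LPS libraries were below all vehicle libraries, and the log2 fold change was -1.82 (SE 0.201, edgeR adjusted p = 2.37e-05). The KO lowest, median and highest levels were 50.5, 174.6 and 268 CPM with vehicle and 13.55, 39.8 and 77.8 CPM with LPS. The groups overlapped only because replicate 6 was low with both treatments, and within its own pair it also fell. The log2 fold change in KO was -2.004 (SE 0.393, edgeR adjusted p = 8.51e-04), and -2.01 without replicate 6.

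The transferrin receptor and its partner reductase fell as well. Tfrc encodes the transferrin receptor, which brings iron-loaded transferrin into the cell. It had 94.2, 116 and 128 CPM in WT vehicle libraries and 47.8, 52.8 and 49.1 CPM in WT LPS libraries, with no overlap. Its log2 fold change was -1.17 (SE 0.109, edgeR adjusted p = 6.69e-06). In KO cells the lowest, median and highest levels were 94.8, 109 and 138 CPM with vehicle and 39.4, 55.3 and 66.0 CPM with LPS, again without overlap, and the log2 fold change was -1.04 (SE 0.132, edgeR adjusted p = 2.2e-05), or -1.09 without replicate 6. Steap3 encodes the reductase that turns the ferric iron released from transferrin into ferrous iron in the endosome. Its WT levels were 47.1, 50.3 and 43.9 CPM with vehicle and 7.21, 7.81 and 6.34 CPM with LPS. This was the largest drop among the 9 genes tested, with a log2 fold change of -2.72 (SE 0.095, edgeR adjusted p = 3.72e-09). In KO cells Steap3 had 33.8, 40.3 and 48.9 CPM as the lowest, median and highest with vehicle and 3.49, 7.00 and 7.72 CPM with LPS, with no overlap (log2 fold change -2.67, SE 0.176, edgeR adjusted p = 4.14e-08, and -2.60 without replicate 6).

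The 2 related divalent metal transporters both rose. Slc11a1 encodes NRAMP1, which moves iron and manganese out of the phagosome. In WT cells it had 353, 291 and 306 CPM with vehicle and 574.5, 499.8 and 479.8 CPM with LPS, without overlap, and the log2 fold change was 0.72 (SE 0.088, edgeR adjusted p = 5.5e-05). Among KO libraries the lowest, median and highest levels were 273, 317 and 415 CPM with vehicle and 448.5, 517 and 608 CPM with LPS. These did not overlap, and the log2 fold change was 0.67 (SE 0.109, edgeR adjusted p = 1.95e-04), or 0.65 without replicate 6. With total counts alone it was 0.31 in WT, still called, and 0.28 in KO, where it lost the call (edgeR adjusted p = 0.124, the highest of 14 alternatives, whose lowest was 1.82e-08). Slc11a2 encodes DMT1, which carries ferrous iron out of the endosome, and it overlaps the annotated gene Gm5475 on the other strand. Its WT levels were 52.8, 57.3 and 59.3 CPM with vehicle and 281, 262 and 280.6 CPM with LPS. The rise was much larger than that of Slc11a1, with a log2 fold change of 2.29 (SE 0.067, edgeR adjusted p = 1.13e-09). For KO the levels ran from 53.2 over a median of 58.7 to 67.7 CPM with vehicle and from 259.9 over 276 to 308 CPM with LPS (log2 fold change 2.21 with and without replicate 6, SE 0.085, edgeR adjusted p = 3.2e-10). Thus within the endosomal route of iron uptake Tfrc and Steap3 fell while Slc11a2 rose.

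Ireb2 encodes iron regulatory protein 2. In WT cells it had 50.75, 56.2 and 51.9 CPM with vehicle and 85.5, 78.0 and 70.6 CPM with LPS, with no overlap and a log2 fold change of 0.56 (SE 0.079, edgeR adjusted p = 1.43e-04). This rise rests on the scaling. With total counts alone it was 0.15 and was no longer called (edgeR adjusted p = 0.13, the highest of 14 alternatives, whose lowest was 5.99e-10), and per length Ireb2 had 18.9 ± 1.74 TPM with vehicle and 20.6 ± 1.97 TPM with LPS. With all 36 libraries in 1 fit it missed the threshold too (edgeR adjusted p = 0.122). The KO lowest, median and highest levels were 21.95, 54.8 and 58.3 CPM with vehicle and 44.65, 76.2 and 82.9 CPM with LPS, and the lowest of each was replicate 6, through which the groups overlapped. The log2 fold change in KO was 0.54 (SE 0.213, edgeR adjusted p = 0.0514). It passed with the replicate block (0.57, edgeR adjusted p = 1.03e-05) and without replicate 6 (0.50, edgeR adjusted p = 1.32e-05), and the 14 alternatives ran from 6.06e-06 to 0.662.

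Lcn2 encodes lipocalin 2 and had the largest change of the 9 genes tested. It went from 57.55, 45.35 and 47.6 CPM in WT vehicle libraries to 606, 646 and 658 CPM in WT LPS libraries. The groups lay far apart, with a log2 fold change of 3.67 (SE 0.093, edgeR adjusted p = 4.07e-10), or 12.7-fold. In KO cells the lowest, median and highest levels were 43.6, 65.3 and 86.4 CPM with vehicle and 603, 736 and 1234 CPM with LPS (log2 fold change 3.60, SE 0.245, edgeR adjusted p = 5.73e-08, and 3.46 without replicate 6, which held the highest LPS level). Lcn2 is also a granule gene of neutrophils. The 10 neutrophil markers, S100a8 and S100a9 among them, summed to between 631 and 674 CPM in WT vehicle libraries and between 523 and 564 CPM in WT LPS libraries. In KO libraries they summed to between 561.5 and 1128 CPM with vehicle and between 440.2 and 1193 CPM with LPS, the highest being replicate 6 in both. The levels of single markers differed. Ly6g was below 1 CPM in all 36 libraries, whereas in WT libraries S100a8 had 97.8 to 187 CPM, Ngp 109.5 to 183, Mmp8 25.5 to 61.7 and Camp 8.03 to 21.6 CPM. The part of neutrophils in the level of Lcn2 was not tested.

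Hamp had 197 counts over the 36 libraries and was left out of the test in both LPS comparisons by the filter on low counts. The alternatives that did test it called it higher with LPS, 8 of 14 in WT (adjusted p from 5.33e-06 to 0.0018, DESeq2 and edgeR) and 3 of 14 in KO (2.19e-07 to 5.96e-05). It overlaps the annotated gene Gm44662. In WT cells its counts were 1, 0 and 0 with vehicle and 11, 12 and 11 with LPS. In KO cells they ran from 0 over a median of 1 to 2 with vehicle and from 5 over 12 to 16 with LPS. The groups did not overlap in either genotype, and the LPS to vehicle ratio of summed counts was 43.6 in WT (exact 95% interval 7.31 to 1770, resting on 1 vehicle count) and 15.2 in KO (6.63 to 42.9), or 14.3 without replicate 6 (5.73 to 45.9). These intervals cover counting error only. With CCM alone Hamp had 3 counts in WT and 1 in KO, and with LPS+CCM it had 22 in WT and 64 in KO.

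**Figure D3:**
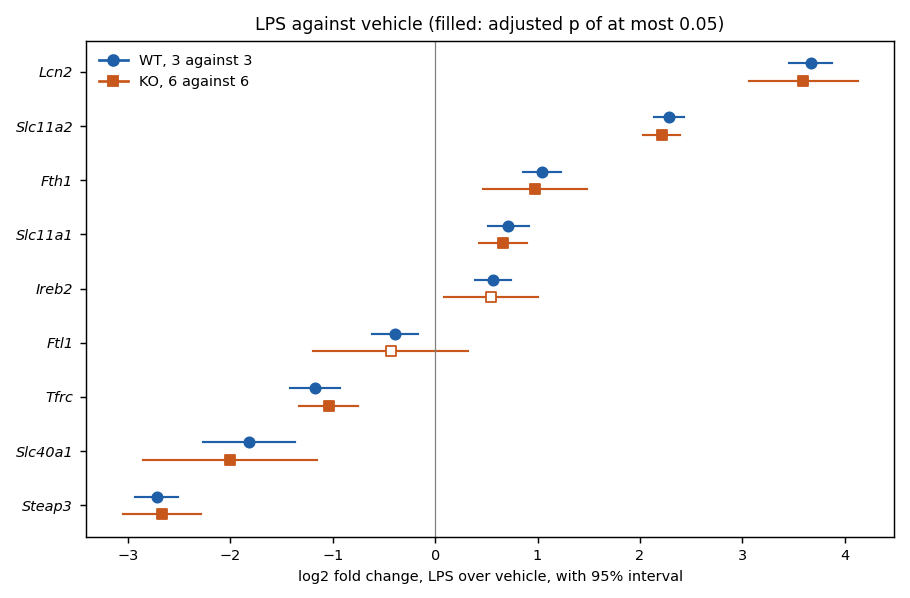
Log2 fold change of LPS over vehicle for the 9 genes tested, with 95% intervals, in WT (circles, 3 against 3 libraries) and KO (squares, 6 against 6). Filled symbols are called. The point estimates of the 2 genotypes lie close together for each gene, and the KO intervals are the wider ones, most of all for Ftl1 and Slc40a1.

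CCM alone was compared with vehicle to see its effect on resting cells. None of the 9 genes tested was called in WT or KO by edgeR. In WT 0.057% of 14024 genes tested were called, 2 of the 9 genes had an unadjusted p under 0.05, as had 1404 of all genes, and DESeq2 called 2 of them among 247 genes. In KO the share was 0% of 13799 genes (333 at an unadjusted p under 0.05, and 24 called by DESeq2), with 1 of the 9 at an unadjusted p under 0.05 and 0 by DESeq2. The values with the largest effects were those of Slc40a1. Its WT CCM libraries had 290, 257 and 214 CPM beside 173, 164 and 152 CPM with vehicle, so the groups did not overlap. The log2 fold change was 0.62 (SE 0.097, 95% interval 0.40 to 0.84, edgeR adjusted p = 0.0752), and DESeq2 gave an adjusted p = 1.12e-08 (14 alternatives, 1.12e-08 to 1). In KO cells Slc40a1 had a lowest, median and highest level of 52.6, 273 and 380 CPM with CCM, overlapping the vehicle range of 50.5 to 268 CPM. Each of the 6 KO pairs was higher with CCM, by 0.06 (replicate 6) to 0.92 on the log2 scale. The KO log2 fold change was 0.61 (SE 0.414, edgeR adjusted p = 1), 0.63 without replicate 6 (edgeR adjusted p = 0.0775), and 0.57 when the replicate block was fitted (edgeR adjusted p = 0.00323, 14 alternatives up to 1).

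Slc11a1 and Tfrc had smaller values under CCM. Slc11a1 had 457, 399 and 358.5 CPM in the WT CCM libraries, all above the WT vehicle libraries, with a log2 fold change of 0.34 (95% interval 0.13 to 0.55, edgeR adjusted p = 0.248). In KO it was 0.30 (edgeR adjusted p = 1), 0.34 without replicate 6, and under the block 0.29 (edgeR adjusted p = 0.0193). Tfrc was lower in 3 of 3 WT pairs and in 6 of 6 KO pairs, with log2 fold changes of -0.26 in WT (95% interval -0.52 to 0.01) and -0.30 in KO (-0.58 to -0.01), where it was -0.29 without replicate 6. The groups overlapped in both genotypes. In WT the replicate numbers did not pair the libraries by the rule used, so the WT pairs are arbitrary. Only in KO and only with the replicate block was Tfrc called (-0.30, edgeR adjusted p = 0.00867). Under the block 3 of the 9 genes were called in KO, Slc40a1 and Slc11a1 higher and Tfrc lower, where 3.11% of all genes tested were. Leaving out replicate 6 in place of the block called 0 of the 9, where 1.01% of all genes were called. The 95% intervals of Slc11a2 under CCM, -0.16 to 0.15 in WT and -0.21 to 0.14 in KO, were the narrowest of the 9 genes in each genotype.

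Under LPS, CCM was compared with LPS alone, a comparison that shares its LPS libraries with the one against vehicle. No gene of the 9 was called in WT by edgeR, where 11.9% of 13579 genes were, while 2 of them had an unadjusted p under 0.05, as had 3493 of all genes, and DESeq2 called 1 of them among 1558 genes. In KO none of the 10 tested was called, where 0.112% of 13386 genes were, with 0 of them at an unadjusted p under 0.05 (1070 of all genes) and 0 by DESeq2 (180 of all genes), and without replicate 6 it was also 0, where 1.27% of all genes were called. Slc11a1 had 694, 592 and 587 CPM in the WT LPS+CCM libraries beside 574.5, 499.8 and 479.8 CPM with LPS alone. The groups did not overlap, and the log2 fold change was 0.27 (SE 0.080, 95% interval 0.09 to 0.45, edgeR adjusted p = 0.0548). Slc40a1 had 74.5, 59.9 and 50.15 CPM beside 63.25, 44.8 and 30.7 CPM. These overlapped, yet each same-numbered pair was higher with CCM, and the log2 fold change was 0.42 (SE 0.219, edgeR adjusted p = 0.262).

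The same-numbered WT libraries deviated together in this comparison, so the fit blocked on replicate is given beside it. It called 4 of the 9 genes, where 23.7% of all genes tested were called: Slc11a1 (0.27, edgeR adjusted p = 3.96e-06), Slc40a1 (0.45, edgeR adjusted p = 1.03e-04) and Ftl1 (0.09, edgeR adjusted p = 0.0119) higher, and Lcn2 (-0.16, edgeR adjusted p = 0.00141) lower. Over the 14 alternatives the highest adjusted p of each of these was 1. Lcn2 had 525, 588 and 603 CPM with LPS+CCM beside 606, 646 and 658 CPM with LPS alone. All LPS+CCM libraries were lower, by a small amount beside the 12.7-fold LPS effect. Without WT LPS replicate 1, 2 genes were called with no block, Slc11a1 (0.35, edgeR adjusted p = 0.0115) and Slc40a1 (0.71, edgeR adjusted p = 0.0241). The share of all genes called in that fit is not given here. The 95% intervals of Fth1 (-0.10 to 0.08) and Slc11a2 (-0.12 to 0.09) in WT were narrow around no change.

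The LPS+CCM libraries of the KO group spread widely for ferritin. The lowest, median and highest Fth1 levels were 20710, 29760 and 49340 CPM with LPS+CCM beside 22670, 23700 and 41590 CPM with LPS. Replicates 2, 5 and 6 had 34440, 49340 and 40120 CPM and the other 3 lay between 20710 and 25090 CPM, so the group fell into a high and a low set of libraries that its labels do not explain. Ftl1 was also highest in these 3 replicates, with 6857, 8309 and 12030 CPM beside 4348 to 5303 CPM in the others. Leaving out replicate 6 therefore does not remove the split, because replicates 2 and 5 stay in the high set. With LPS alone replicate 6 already had 41590 CPM of Fth1, and replicates 2 and 5 had 23550 and 22930 CPM. Replicates 2 and 5 also stood apart beyond ferritin. The chi-square per degree of freedom between the counts of a pair of libraries was 11.1 to 18.6 among replicates 1, 3 and 4. It was 56.0 to 61.7 between these and replicate 2, and 167 to 173 between these and replicate 5. The log2 fold changes were 0.26 for Fth1 (95% interval -0.25 to 0.76) and 0.34 for Ftl1 (-0.34 to 1.02), or 0.38 and 0.45 without replicate 6. Slc40a1 was higher in each of the 6 pairs, with a log2 fold change of 0.48 (95% interval -0.33 to 1.28, edgeR adjusted p = 0.833), or 0.50 without replicate 6. The groups overlapped, and the replicate numbers did not pair these libraries by the rule used, so the pairs are arbitrary.

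**Figure D4:**
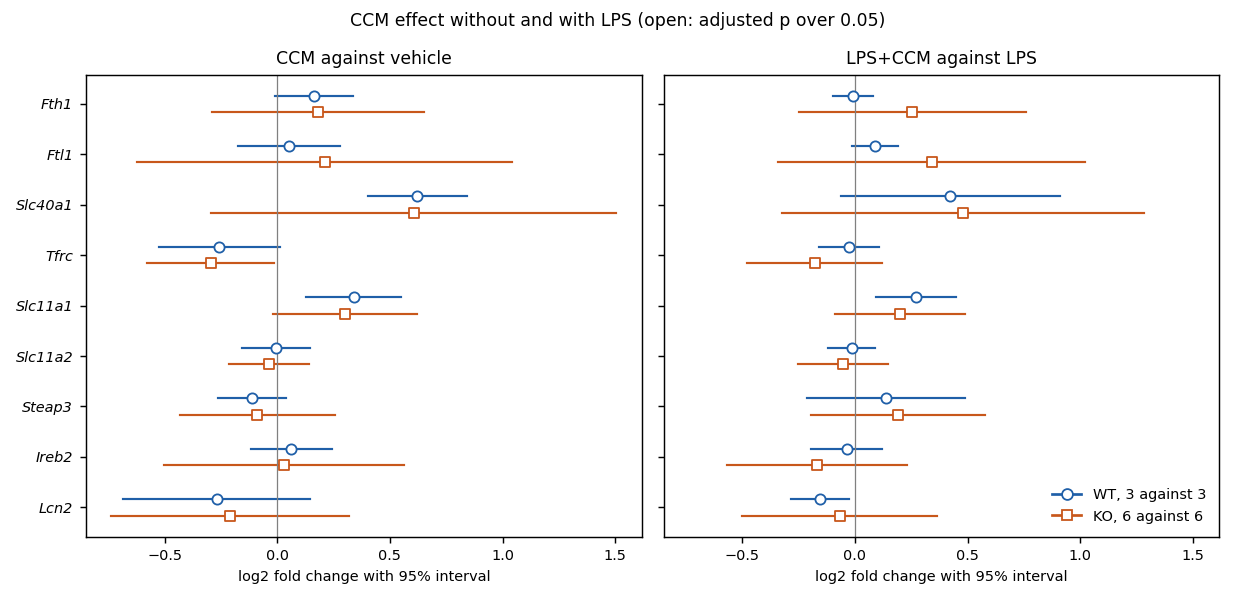
Log2 fold change of CCM over vehicle (left) and of LPS+CCM over LPS (right) for 9 genes, with 95% intervals, in WT (circles, 3 against 3 libraries) and KO (squares, 6 against 6). All symbols are open because none had an edgeR adjusted p of at most 0.05. Slc40a1 and Slc11a1 lie to the right of 0 in all 4 comparisons, with intervals that include 0 in KO and, for Slc40a1 under LPS+CCM, in WT.

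Genotype was examined with vehicle and through its interaction with each treatment. Between KO and WT vehicle cells none of the 9 genes tested was called, where 0% of 14385 genes were called by edgeR (118 at an unadjusted p under 0.05) and 1 gene by DESeq2, and 0 of the 9 had an unadjusted p under 0.05. The widest values were those of Lcn2, 0.43 higher in KO on the log2 scale (95% interval -0.10 to 0.95, and 0.38 without replicate 6), and of Ftl1, 0.38 higher (-0.45 to 1.22), which was -0.01 without replicate 6. A difference in the LPS effect between genotypes was called in 0 of the 10 genes (0% of 15093 genes called by edgeR, 112 at an unadjusted p under 0.05, 0 by DESeq2), and likewise for the effect of CCM under LPS (0% of 14546 genes called by edgeR, 72 at an unadjusted p under 0.05, 0 by DESeq2). The intervals of these differences were wide for some genes, -0.76 to 0.67 for Fth1 and -1.42 to 1.09 for Slc40a1 in the interaction with LPS. The values of Fth1 and Slc40a1 were -0.05 and -0.17, or -0.04 and -0.18 without replicate 6, when 0 genes of the 10 were called in either interaction. For these genes differences of that size between genotypes were not detectable. Narrower intervals were those of Slc11a2 (-0.31 to 0.205) and Slc11a1 (-0.39 to 0.34) in the same interaction. The effect of CCM in WT with and without LPS was also compared, and none of the 9 genes was called where 2.09% of 14747 genes were. For Slc40a1 this difference was -0.21 (95% interval -0.81 to 0.38), and for Fth1 -0.19 (-0.39 to 0.02).

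A wider list of 56 other iron and haem genes was read in the same fits. Of the 50 tested in WT under LPS, 18 were higher and 23 lower, where 30.6% of all genes tested were higher and 32.4% lower. Of the 47 tested in KO 16 were higher and 17 lower, where 22.4% and 24.7% were, and the median log2 fold change was -0.03 (WT) and -0.31 (KO) beside -0.05 over all genes. Among the genes of the list with an average log2 CPM of at least 1, the largest rises in WT were those of Cp, the copper ferroxidase ceruloplasmin, from 2.84 ± 0.851 to 156 ± 22.8 CPM (SD, n = 3; log2 fold change 5.75), and of Hp, haptoglobin, which captures free haemoglobin, from 11.0 ± 0.51 to 210.0 ± 62.4 CPM (4.26). They were followed by Slc25a37, the mitochondrial iron importer mitoferrin 1 (2.90), and Slc39a14, a metal importer (2.48). Above the same level Cp, Hp, Slc25a37 and Slc39a14 also led in KO, with 5.63, 4.22, 2.81 and 2.38. The reductase Steap4 was below that level, with at most 3.36 CPM in vehicle and LPS libraries, and rose by 3.10 in WT and 4.25 in KO. The largest drops in WT above that level were those of the haem exporter Flvcr1 (-1.94), the haemoglobin receptor Cd163 (-1.91), the iron-binding protein lactoferrin, Ltf (-1.87), and the hypoxia factor Epas1 (-1.75), while below it Slc22a17, a lipocalin 2 receptor, had -1.79. In KO they were Cd163 (-2.10), Flvcr1 (-2.02), Ltf (-1.95) and Hfe (-1.60), the gene of the haemochromatosis protein. Each of these named changes had an edgeR adjusted p under the threshold, the highest being 0.00156 for Cd163 in WT.

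By function, and beside the shares of all genes just given, 7 of the 12 tested genes of haem uptake, breakdown and export were higher and 5 lower in WT under LPS, and 5 and 5 of 10 in KO. For iron sensing and ferritin handling 4 were higher and 3 lower of 8 in WT, and 4 and 2 of 8 in KO. For other iron uptake, reduction and efflux 3 were higher and 5 lower of 13 in WT, and 4 and 4 of 12 in KO. Of the 17 genes of mitochondrial iron, haem and iron-sulphur clusters 4 were higher and 10 lower in WT and 3 and 6 in KO, with a median of -0.34 in both.

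With LPS+CCM against LPS in WT, 6 of the 48 tested genes of this list were higher and 0 lower, where 4.15% of all genes tested were called higher and 7.78% lower. Hmox1, haem oxygenase 1, which breaks haem down and frees its iron, had 2381 ± 283 CPM with LPS and 3339 ± 287 CPM with LPS+CCM (n = 3), a log2 fold change of 0.49 (edgeR adjusted p = 0.00478). Slc48a1, which carries haem out of the lysosome (0.33), Alas1, the rate-limiting enzyme of haem synthesis (0.31), and Flvcr1 (0.31) came next. In KO, Hmox1 had 2478 ± 212 CPM with LPS and 3750 ± 729 CPM with LPS+CCM (n = 6), and was not called. The KO means of Slc48a1 (706 to 866 CPM), Alas1 (1038 to 1300 CPM) and Flvcr1 (16.5 to 19.9 CPM) were also higher and not called. With CCM alone Hmox1 had 1099 ± 154 CPM beside 723 ± 72.9 CPM with vehicle in WT, and 1076 ± 227 beside 736 ± 70.7 CPM in KO. Apart from LPS against vehicle, 0 genes of this list were called by edgeR in the other comparisons.

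The genes whose pattern over the 36 libraries lay closest to 4 of the genes were found by the root mean square difference of their centred log2 CPM, among 8490 genes. For Fth1 they were Psmc2 (0.138), Utp11 (0.144) and Psmd7 (0.148), beside a spread of 0.595 of Fth1 itself. For Slc40a1 (own spread 1.23) they were Ldlrad3 (0.317), Zfp36l2 (0.351) and Trp53inp1 (0.377), and for Tfrc (own spread 0.54) Rnase4 (0.194), Nsd2 (0.225) and Aaas (0.233). For Lcn2 (own spread 1.90) they were Pnp (0.304), Pilrb2 (0.318) and Oas1a (0.338). The libraries share their scaling, and those of a treatment are not independent points of such a pattern.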

How the data were processed

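Raw read counts per gene, as deposited by the authors in 1 table of 36 libraries, were used without change. The authors' processing notes name fastp, HISAT2 2.0.5 and featureCounts 1.5.0-p3 with the mm10 build, and the strand setting is not given in the sources used here. Groups came from the genotype and treatment labels. Each comparison was fitted with edgeR 4.0.16 (R 4.3.3: filterByExpr, TMM, quasi-likelihood test) on its own libraries over all genes that passed the filter, with Benjamini-Hochberg adjustment, after a test on simulated data. CPM used TMM scaling over the 36 libraries, pair differences a prior count of 2, and TPM the gene lengths of the table. The ferritin ratio was tested with a two-sided exact permutation test over libraries, and also within same-numbered pairs.

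Alternatives were DESeq2 1.42.0, RLE scaling, total counts alone, no filter beyond 1 count, voom with quality weights (limma 3.58.1), ferritin pseudogene rows added, all libraries in 1 fit, a replicate block, and each replicate left out. The replicate numbers were taken to pair libraries where every same-numbered pair correlated above 0.1 in its deviations from the group means. This held for LPS against vehicle in KO (0.30 to 0.83), LPS+CCM against LPS in WT (0.151 to 0.36) and CCM against vehicle in KO (0.337 to 0.839). Libraries with different numbers had a median correlation of 0.175, -0.132 and 0.223 in these comparisons, in the same order. In the KO comparisons that median was above the bar of 0.1, so passing the bar does not by itself show pairing there. The lowest same-numbered value was above the median in each. The 10 genes, the wider list and the marker lists were chosen with earlier results of these data known, so their counts are not independent evidence. All 10 genes were named, and of the wider list up to 4 called higher and 4 called lower with the largest change and an average log2 CPM of at least 1. Depth was 13469262 to 28288923 counts per library (median 19951421), which leaves Hamp near the floor of 3 counts. Of the table's 54532 genes 53499 had identical coordinates in GENCODE M21. The table gives Fth1 a different span there, chr19:9982703-9985092, which holds the hairpin shown.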

Additional observations from a re-analysis of the deposited data

Results flagged for a closer look

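In groups of 6 libraries, 12 values lay so far from the rest that the gap to the nearest library, as a share of the group's whole range, passed the critical value for that size. Of 38 groups of values examined, about 1 in 20 would be expected to do so by chance, and 11 of the 12 belonged to KO replicate 6, whose values are not independent of each other. Its Fth1 level was the highest with vehicle (22150 CPM, others 10410 to 12870, gap share 0.791), CCM (22300 CPM, others 12590 to 15880, gap share 0.661) and LPS (41590 CPM, others 22670 to 24760, gap share 0.889). Its Ftl1 level was the highest as well, with vehicle (15370 CPM, others 5188 to 5939, gap share 0.926), CCM (18830 CPM, others 5722 to 7140, gap share 0.892) and LPS (10830 CPM, others 3978 to 4877, gap share 0.869).

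Ireb2 was lowest in the same replicate with vehicle (21.95 CPM, others 46.6 to 58.3, gap share 0.678), CCM (24.4 CPM, others 49.3 to 60.5, gap share 0.691) and LPS (44.65 CPM, others 73.3 to 82.9, gap share 0.75). Its Fth1 to Ftl1 ratio was lowest with vehicle (1.44, others 1.97 to 2.17, gap share 0.772) and LPS (3.84, others 5.08 to 5.89, gap share 0.653). The remaining value was Slc11a1 in KO vehicle replicate 3 (415 CPM, others 273 to 326, gap share 0.627). What sets replicate 6 apart was not tested.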

How the results depend on the processing

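Of 840 recomputed values of single genes, 778 kept their direction and their side of the threshold, 36 gained a call, 4 lost one and 22, of which none was called in either fit, turned direction. The losses were Ftl1 and Ireb2 with all libraries in 1 fit and Ireb2 with total counts alone in WT under LPS, and Slc11a1 with total counts alone in KO. The number of genes called under LPS was 9 to 10 in WT and 7 to 9 in KO with 1 replicate left out. The share of all genes called is given above only for the fit without KO replicate 6. With 1 replicate left out, the log2 ferritin ratio changed by 1.384 to 1.516 in WT and by 1.386 to 1.442 in KO.

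For LPS+CCM against LPS in WT, where 0 genes were called, DESeq2 and voom with quality weights called 1 each, total counts alone 2, no filter beyond 1 count 3 and the replicate block 4, and leaving out 1 replicate 0 to 2. In KO the count of 0 became 1 with voom (Slc11a1) and 1 with the block (Slc40a1, 0.51). For CCM against vehicle it became 2 in WT with DESeq2, with no filter and with the block (Slc40a1 and Slc11a1), and in KO 2 with voom and 3 with the block. The number of all genes called is given above for DESeq2. The share of all genes called is given above for the block in WT under LPS+CCM and in KO under CCM. For the other fits of this paragraph neither is given, so these counts cannot be set against all genes. For CCM in WT and LPS+CCM in KO the replicate numbers did not pair the libraries by the rule used. The block changed no other call beside those in the report, and the cause of these changes was not tested. No paired analysis was possible for KO against WT because different mice carry the genotypes.

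Directions turned only near 0. In WT under LPS+CCM, with total counts alone, the log2 fold changes were 0.071 for Fth1, 0.053 for Tfrc, 0.065 for Slc11a2 and 0.043 for Ireb2, and with voom 0.009 for Slc11a2. Leaving out 1 replicate gave -0.028 to 0.005 for Fth1, -0.056 to 0.013 for Tfrc, -0.049 to 0.005 for Slc11a2 and -0.106 to 0.033 for Ireb2. For Lcn2 in KO it gave -0.129 to 0.010. Under CCM in WT it gave -0.039 to 0.184 for Ftl1, -0.055 to 0.037 for Slc11a2 (0.010 with all libraries in 1 fit) and -0.013 to 0.119 for Ireb2. In KO, Ireb2 was -0.026 with voom and -0.010 to 0.071 with 1 replicate left out. For KO against WT, Ftl1 ran from -0.007 to 0.534, and the Slc40a1 interaction of LPS and CCM from -0.450 to 0.059.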

Other observations

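Only mRNA at 6 h was read, so iron content, ferritin protein and the use of the hairpins were not measured. WT had 3 libraries per treatment and KO 6, and the KO intervals were the wider ones for most comparisons. In KO with LPS+CCM the SD of Fth1 was 11200 CPM with replicate 6 and 11700 CPM without it.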
